A study of Mus musculus with 6 samples.

Results

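The genes described here make, break down and sense prostaglandin E2 (PGE2). They are the cyclooxygenases Ptgs1 and Ptgs2, the PGE synthases Ptges, Ptges2 and Ptges3, the catabolic dehydrogenase Hpgd, and the EP receptors Ptger1 to Ptger4. They were chosen by name, 10 genes in all. A gene was measured where a row of the array table (a transcript cluster, roughly 1 gene) carried that gene's symbol alone, and 8 of the 10 were, out of 22180 gene symbols tested. Ptgs1 and Ptger1 had 0 such rows and have no value here. Each of the 8 had exactly 1 such row.

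RNA came from colonic mucosa that looked normal, taken next to tumours, of 6 male BALB/c mice, with 1 Affymetrix Mouse Gene 2.0 ST array per mouse. Wild-type (WT) mice carried Mthfd1S+/+ (n = 4), and the other group carried Mthfd1S+/- (n = 2), which makes them deficient in the synthetase activity of the folate enzyme MTHFD1. Every mouse of both groups had received an intraperitoneal dose of 6 mg/kg azoxymethane (AOM, which induces colon tumours). DSS (dextran sulfate sodium, toxic to the gut lining) at 3% was then given in 2 rounds of 4 days, beginning 1 and 4 weeks afterwards. The animals were killed 13 weeks after AOM; the protocol puts their age at injection at 3 months, while the age field of the labels reads 7 months. No untreated mice are among these arrays, so every level below is one after carcinogen and injury. The line had been backcrossed to BALB/c for at least 10 generations.

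PGE2 is made in steps. Phospholipases free arachidonic acid from membranes, cyclooxygenases turn it into PGH2, and PGE synthases turn PGH2 into PGE2. The carrier SLCO2A1 brings PGE2 into cells, where 15-hydroxyprostaglandin dehydrogenase (Hpgd) inactivates it. EP2 and EP4 raise cyclic AMP, EP3 mostly lowers it and EP1 acts through calcium. In the colon, PGE2 takes part in repair after injury, in inflammation and in tumour growth, Ptgs2 being the inducible cyclooxygenase and Hpgd an enzyme of the differentiated epithelium that colon tumours often lose.

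For the genes on which the results turn, the RefSeq sequence upstream of the annotated start is shown (mouse build GRCm38.p6, 250 bases, 5′ to 3′). Ptgs2 and Hpgd are shown as the inducible step of synthesis and the step of breakdown, and Ptges because its genotype groups did not overlap. Ptgs2 lies on the plus strand, chr1:150099781-150100030, Hpgd on the plus strand, chr8:56294302-56294551, and Ptges on the minus strand, chr2:30903298-30903547. Capitals mark a GC box (GGGCGG) in all 3 genes and, in Ptgs2, the C/EBP palindrome (TTGCGCAA), each read on both strands.
Ptgs2: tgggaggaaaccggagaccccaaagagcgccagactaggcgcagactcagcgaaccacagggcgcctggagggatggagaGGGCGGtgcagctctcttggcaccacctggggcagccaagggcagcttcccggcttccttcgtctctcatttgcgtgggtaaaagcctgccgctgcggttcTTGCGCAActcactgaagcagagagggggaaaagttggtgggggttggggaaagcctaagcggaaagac
Hpgd: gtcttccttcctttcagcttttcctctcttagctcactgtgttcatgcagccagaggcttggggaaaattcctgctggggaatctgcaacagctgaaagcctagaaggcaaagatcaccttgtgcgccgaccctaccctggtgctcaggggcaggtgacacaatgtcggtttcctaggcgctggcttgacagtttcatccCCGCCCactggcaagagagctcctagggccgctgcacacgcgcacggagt
Ptges: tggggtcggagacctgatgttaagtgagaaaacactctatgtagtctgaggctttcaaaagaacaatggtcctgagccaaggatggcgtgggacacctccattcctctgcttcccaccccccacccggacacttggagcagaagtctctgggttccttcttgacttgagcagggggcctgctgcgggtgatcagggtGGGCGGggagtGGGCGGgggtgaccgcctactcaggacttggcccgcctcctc

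A window of 300 bases (these 250 and the 50 after the start) was searched in 9 of the 10 genes. TTGCGCAA, a palindrome that C/EBP factors can bind, was found in Ptgs2 alone among the 9, 69 bases upstream of its start; 0.183% of all 32851 windows hold it. GGGCGG was found in 6 of the 9 (Ptgs2, Ptges, Ptges3, Hpgd, Ptger3 and Ptger4) and in 35.7% of all windows. TATAAA began 5 bases into the annotated transcript of Hpgd (13.6% of all windows), the cyclic AMP response motif TGACG 14 bases into that of Ptgs2 (20.8%) and the E-box CACGTG 17 bases into it (7.15%), overlapping the former; CACGTG was found in Ptges2 as well and TGACG in Ptges3. CCAAT was found in Ptger2 and Ptger4 (37.4%), and TGACGTCA (1.79%) and TGANTCA (7.81%) in 0 of the 9. These matches describe letters only, and no binding was measured.

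The arrays were first set against their labels. The targeted gene Mthfd1 read (log2 level) 7.64, 7.63, 7.496 and 7.75 in the WT group, against 7.96 and 7.63 in the Mthfd1S+/- group, a difference that did not pass (limma adjusted p = 0.890); whether the allele alters the transcript level is not stated in the labels, so this does not check the genotypes. All 13 colonocyte and all 8 goblet cell markers lay above the median level of the tested clusters. So did 11 of 12 smooth muscle and 10 of 10 fibroblast markers, so transcripts of muscle and connective tissue were present beside those of epithelium. Mean levels of the smooth muscle list were 9.78 to 10.13 in WT and 9.98 to 10.46 in Mthfd1S+/- mice, and those of the colonocyte list 11.04 to 11.11 and 10.97 to 11.06. In such bulk tissue, fewer cells of a type and less RNA per cell cannot be told apart.

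None of the 8 measured genes differed between the genotypes beyond the error. In limma, 0 of 8 passed at an adjusted p under 0.05, where the share over all 23521 clusters was 0%. At an unadjusted p under 0.05 it was again 0 of 8 (unmoderated least squares also gave 0), where the share over all clusters was 5.79%. Single mice moved this count: it was 3 of 8 without Mthfd1S+/- mouse 1 (Ptges3, Ptger2 and Ptger3, where 8.21% of all clusters were called), 1 without WT mouse 1 (Ptger2; 4.53% of all clusters) and 1 without WT mouse 4 (Ptgs2; 6.97%). The smallest adjusted p among these was 0.492. Of the 8 log2 differences (Mthfd1S+/- minus WT), 6 were above 0 and 2 below, with a median of 0.14, beside a median of 0.012 over all clusters. The groups did not overlap in 1 of the 8, Ptges, which was higher in Mthfd1S+/- mice. By that rule 14.0% of all clusters were apart, 7.96% being higher and 6.04% lower in Mthfd1S+/- mice, so 1 of 8 is near the background. With 4 mice against 2, an exact permutation test over the 15 splits cannot give a p below 0.0667.

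Ptgs2, the inducible cyclooxygenase, read 8.56, 8.08, 8.04 and 7.78 (log2 level) in the 4 WT mice (1 to 4), against 7.76 and 7.86 in the Mthfd1S+/- mice. One WT mouse stood high and another lay between the Mthfd1S+/- mice, so the groups overlapped. Means were 8.11 ± 0.33 (SD, n = 4) and 7.81 ± 0.071 (SD, n = 2), a log2 difference of -0.31 ± 0.19 (SE; 95% interval -0.73 to 0.12), not past the threshold (limma adjusted p = 0.870; exact permutation p = 0.267). The size, 1.24-fold, depended on single mice: the log2 difference was -0.16 without WT mouse 1 and -0.42 without WT mouse 4 (unadjusted p = 0.0346, adjusted p = 0.688, limma). With the colonocyte marker mean as a covariate it was -0.51 (unadjusted p = 0.0666, adjusted p = 0.952, limma). With the smooth muscle marker mean instead it was -0.21 (unadjusted p = 0.398, limma). The spread of Ptgs2 within groups was larger than that of 94.9% of clusters.

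Il1b, whose cytokine is a classic inducer of Ptgs2, was picked for mention after its values were seen. It read 6.69, 6.198, 5.69 and 5.57 (log2 level) in WT mice 1 to 4, the same order as Ptgs2, and 6.18 and 5.73 in the Mthfd1S+/- mice. WT mouse 1 was the highest of the 6 mice for both genes. In Mthfd1S+/- mouse 1, Ptgs2 was at its lowest of the 6 while Il1b was the third highest, so the order was not kept across genotypes. The genotype difference of Il1b was -0.082 ± 0.29 (SE).

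The PGE synthases differed less. Ptges, the inducible membrane-bound synthase, read 6.66, 6.61, 6.71 and 6.47 (log2 level) in the 4 WT mice (1 to 4), against 6.74 and 6.78 in the Mthfd1S+/- mice. Both Mthfd1S+/- values lay above all WT values, by 0.032 at the closest. The log2 difference was 0.14 ± 0.093 (SE; 95% interval -0.068 to 0.36; limma adjusted p = 0.880; exact permutation p = 0.133), or 1.10-fold, and it stayed between 0.097 and 0.18 when each mouse was left out in turn. Ptges2, a synthase of the Golgi membrane and cytosol, had the narrowest spread, with 6.92, 6.98, 7.03 and 7.07 in WT and 7.05 and 7.01 in Mthfd1S+/- mice. The log2 difference of Ptges2, 0.027 ± 0.084 (SE; 95% interval -0.16 to 0.22), was the smallest of the 8.

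Ptges3 encodes p23, a co-chaperone of HSP90 that also has cytosolic PGE synthase activity. Its row was dim, at the 22.1st percentile of cluster levels, and no detection call was used to separate such a level from background. It read 4.31, 4.39, 4.44 and 4.65 (log2 level) in the 4 WT mice (1 to 4), against 4.34 and 4.87 in the Mthfd1S+/- mice, which were further apart (0.52) than the whole WT range (0.35). The log2 difference was 0.16 ± 0.15 (SE; limma adjusted p = 0.920), but -0.10 without Mthfd1S+/- mouse 2 and 0.42 without mouse 1. A further 2 rows carry the symbol together with that of its pseudogene, and no value was taken from them.

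**Figure D1:**
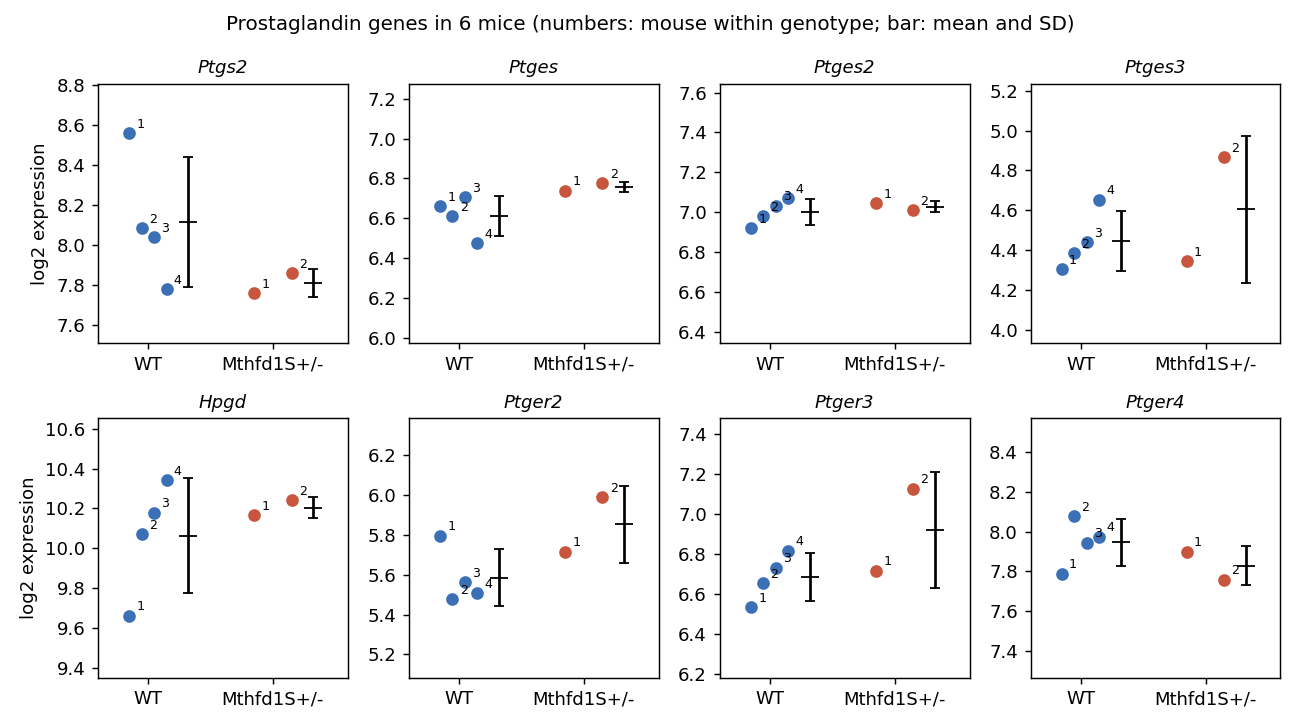
Log2 expression (vertical axes, equal in span) of the 8 measured genes in each of 4 WT mice (blue) and 2 Mthfd1S+/- mice (red), numbered within genotype, with black bars for the mean and SD of each group. Ptges alone has both Mthfd1S+/- points above all WT points, and WT mouse 1 has the highest Ptgs2 (8.56) and the lowest Hpgd (9.66).

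Hpgd, which inactivates PGE2, read 9.66, 10.07, 10.18 and 10.34 (log2 level) in the 4 WT mice (1 to 4), against 10.17 and 10.24 in the Mthfd1S+/- mice. The WT mice spanned 0.68, and both Mthfd1S+/- mice lay within that span. The log2 difference was 0.14 ± 0.17 (SE; 95% interval -0.25 to 0.53; limma adjusted p = 0.943; exact permutation p = 0.733). It was 0.0075 without WT mouse 1, the mouse with the lowest value, and 0.23 without WT mouse 4, the mouse with the highest. With a marker mean added as a covariate it was -0.0061 for smooth muscle and 0.27 for colonocytes.

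Over the 4 WT mice, Hpgd took exactly the reverse order of Ptgs2, and so did Ptges2, Ptges3 and Ptger3. This did not extend to the Mthfd1S+/- mice, where Ptgs2 and Hpgd were both higher in mouse 2 than in mouse 1. For Ptgs2 and Hpgd across all 6 mice Pearson's r was -0.94 (exact permutation p = 0.0181, adjusted p = 0.101 over the 28 pairs of the 8 genes) and Spearman's rho was -0.66 (exact permutation p = 0.175, adjusted p = 0.544). Without the 2 mice farthest from the median of Ptgs2, r was -0.95. For Ptgs2 and Ptges2 r was -0.92 (exact permutation p = 0.0181, adjusted p = 0.101) and rho was -0.89 (exact permutation p = 0.0333, adjusted p = 0.187), with an r of -0.70 without those 2 mice. For Ptges3 and Ptger3 r was 0.95 (exact permutation p = 0.00417, adjusted p = 0.0778) and rho was 0.94 (exact permutation p = 0.0167, adjusted p = 0.156), with an r of 0.75 without the 2 mice farthest from the median of Ptges3. By letter of the mouse identifier, the only other division the labels give, the mice fall into 2 and 4, too few for a value within each. None of the 28 pairs passed at an adjusted p under 0.05 by either coefficient. Their smallest adjusted p was 0.0778, while unadjusted p-values under 0.05 were found for 5 pairs by Pearson's r and 5 by Spearman's rho.

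Among the receptors, Ptger2 (EP2, coupled to cyclic AMP) came nearest to a difference. Its row lay below the median level, at the 44.5th percentile of cluster levels, and no detection call was used. It read 5.80, 5.48, 5.56 and 5.51 (log2 level) in the 4 WT mice (1 to 4), against 5.71 and 5.99 in the Mthfd1S+/- mice. WT mouse 1 lay between the Mthfd1S+/- mice, and the other WT mice lay below both. The log2 difference was 0.27 ± 0.12 (SE; 95% interval -0.012 to 0.54; unadjusted p = 0.0585, adjusted p = 0.837, limma), or 1.20-fold, with an exact permutation p of 0.200. It was 0.13 without Mthfd1S+/- mouse 2 and 0.40 without Mthfd1S+/- mouse 1. With a marker mean as a covariate it was 0.063 for colonocytes and 0.19 for smooth muscle.

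Ptger4 (EP4), the other receptor that raises cyclic AMP, read 7.79, 8.08, 7.94 and 7.97 (log2 level) in the 4 WT mice (1 to 4), against 7.90 and 7.76 in the Mthfd1S+/- mice. The groups overlapped, and the log2 difference was -0.12 ± 0.10 (SE; 95% interval -0.35 to 0.12; limma adjusted p = 0.908). It was -0.046 without Mthfd1S+/- mouse 2, -0.19 without Mthfd1S+/- mouse 1 and -0.073 without WT mouse 2. With a marker mean as a covariate it was 0.011 for colonocytes and -0.062 for smooth muscle. The 6 mice took exactly opposite orders for Ptger2 and Ptger4: Spearman's rho was -1 (exact permutation p = 0.00278, the smallest that 6 mice can give, adjusted p = 0.0778 over the 28 pairs). Pearson's r was -0.94 (exact permutation p = 0.00556, adjusted p = 0.0778), and also -0.94 without the 2 mice farthest from the median of Ptger2. Mthfd1S+/- mouse 2 had the highest Ptger2 and the lowest Ptger4.

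Ptger3 (EP3), which signals mostly through inhibitory G proteins and is known from smooth muscle and enteric neurons, read 6.53, 6.65, 6.73 and 6.82 (log2 level) in WT mice 1 to 4. The Mthfd1S+/- mice read 6.72, within the WT range, and 7.13, above it. The log2 difference was 0.24 ± 0.13 (SE; 95% interval -0.064 to 0.54; limma adjusted p = 0.864; exact permutation p = 0.267). It rested on 1 animal: without Mthfd1S+/- mouse 2 it was 0.031, and without Mthfd1S+/- mouse 1 it was 0.44 (unadjusted p = 0.0121, adjusted p = 0.492, limma).

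Smooth muscle markers were set beside Ptger3, and no association was tested. The mean of the 12 markers, each centred over the 6 mice, was -0.17, -0.26, -0.014 and 0.091 in the 4 WT mice (1 to 4), against -0.064 and 0.41 in the Mthfd1S+/- mice, so Mthfd1S+/- mouse 2 was the highest for both. All 12 markers were above 0 in the genotype difference (median 0.25), as were 8 of 8 neuron and glia markers (median 0.24) and 10 of 10 fibroblast markers (median 0.17). All 6 adipocyte markers were below 0 (median -0.71), while the median over all clusters was 0.012. The adipocyte mean, centred in the same way, was 1.01 in WT mouse 3 and -0.31 to 0.20 in the other WT mice. It was -0.43 in both Mthfd1S+/- mice. Mthfd1S+/- mouse 2 was also the highest of the 6 for the neuron and glia mean (0.33) and the fibroblast mean (0.25). When the mean of the muscle markers entered the fit as a covariate, the log2 difference of Ptger3 was 0.038 in place of 0.24, and that of Ptges3 was -0.096 in place of 0.16. The colonocyte marker mean as a covariate gave 0.12 for Ptger3 and -0.029 for Ptges3. What part these cell types have in the differences was not tested.

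**Figure D2:**
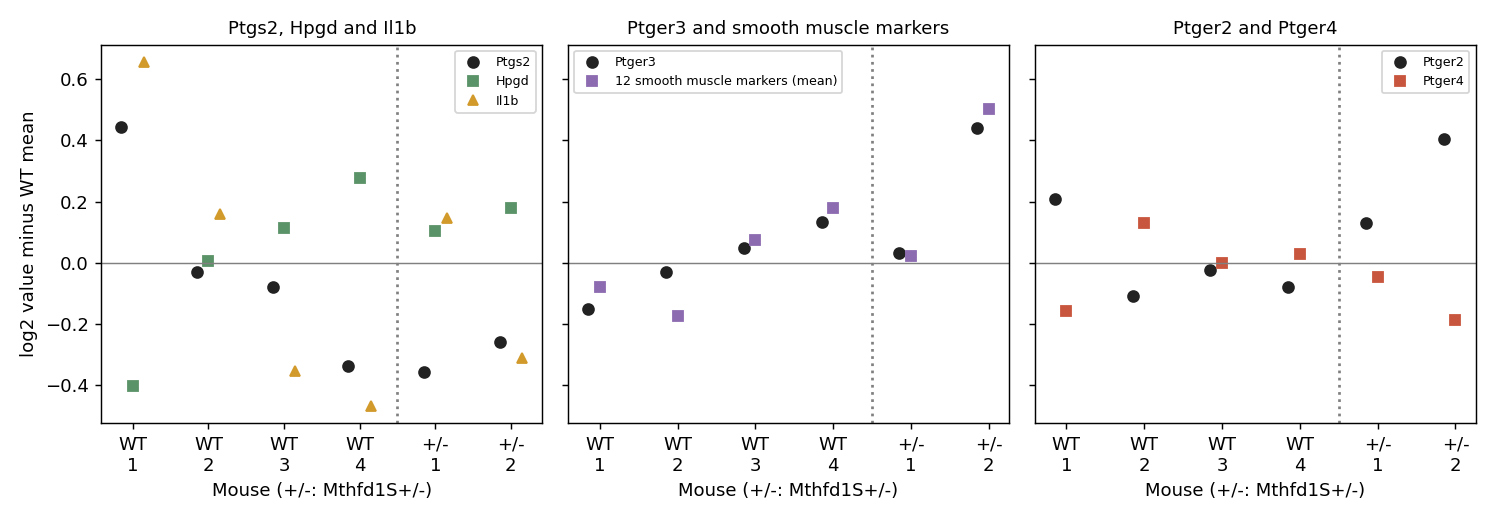
Log2 value minus the WT mean (vertical axis) in each of the 6 mice (horizontal axis; the dotted line divides WT from Mthfd1S+/-) for Ptgs2, Hpgd and Il1b, for Ptger3 beside the mean of 12 smooth muscle markers, and for Ptger2 and Ptger4. Over the WT mice Hpgd takes the reverse order of Ptgs2, Ptger3 and the muscle markers both peak in Mthfd1S+/- mouse 2, and Ptger2 and Ptger4 take opposite orders.

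No other prostanoid gene passed at an adjusted p under 0.05 either, which does not show that their differences were 0. Of the 8 other enzymes measured (of 9 listed), 0 were at an unadjusted p under 0.05 and 0 passed adjusted, with a median log2 difference of 0.015. Ptgis, the prostacyclin synthase, had the highest difference of these, 0.25 ± 0.16 (SE), and Hpgds, the haematopoietic PGD synthase, the lowest, -0.20 ± 0.13 (SE). Ptgis read 6.60, 6.17, 6.63 and 6.80 (log2 level) in WT mice and 6.72 and 6.88 in Mthfd1S+/- mice. Hpgds read 6.39, 6.68, 6.82 and 6.69 and then 6.57 and 6.31, the last being the lowest of the 6. The thromboxane synthase Tbxas1 had 0.072 ± 0.088 (SE) and the lipocalin-type PGD synthase Ptgds 0.053 ± 0.078 (SE). Both Mthfd1S+/- values of Ptgds lay above all WT values, as in 7.96% of all clusters.

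Of the 4 other prostanoid receptors measured (of 5 listed), 0 were at an unadjusted p under 0.05. The PGD2 receptor Ptgdr read 5.37, 5.43, 5.38 and 5.53 (log2 level) in WT and 5.15 and 5.34 in Mthfd1S+/- mice, both below all WT values, with a log2 difference of -0.18 ± 0.094 (SE). The prostacyclin receptor Ptgir had 0.12 ± 0.12 (SE), the thromboxane receptor Tbxa2r 0.11 ± 0.12 and the PGF2α receptor Ptgfr 0.022 ± 0.12. The carrier Slco2a1, which feeds prostaglandins to Hpgd, read 9.85, 9.62, 9.96 and 9.86 in WT mice and 9.97 and 9.57 in Mthfd1S+/- mice, a difference of -0.055 ± 0.13 (SE). The exporter Abcc4 had 0.10 ± 0.083 (SE), with both Mthfd1S+/- values above all WT values. Groups apart like those of Ptgdr and Abcc4 were found for 14.0% of all clusters.

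**Figure D3:**
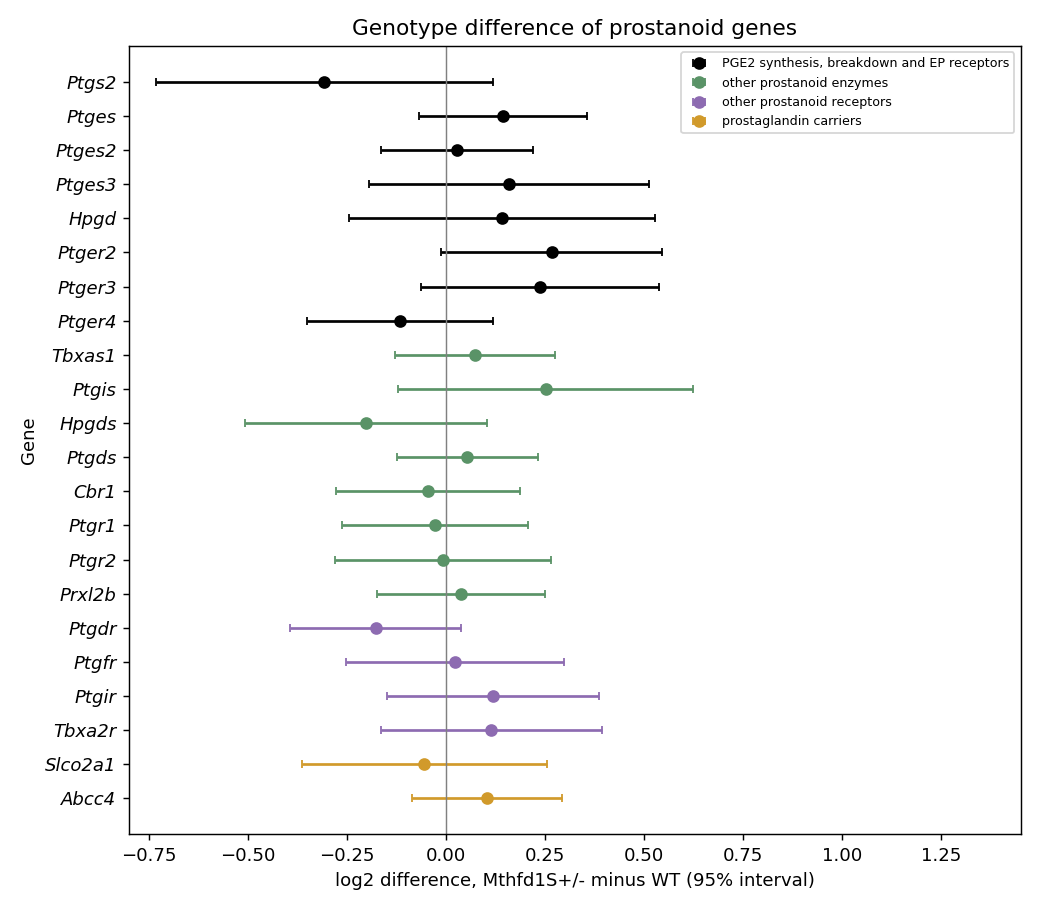
Log2 difference, Mthfd1S+/- minus WT, with its 95% interval from limma (horizontal axis), for the 8 measured PGE2 genes (black), 8 other prostanoid enzymes (green), 4 other prostanoid receptors (purple) and 2 carriers (yellow). Every interval includes 0; the one nearest to leaving it is that of Ptger2, from -0.012 to 0.54.

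Over the 7 lists of genes around the pathway, 72 of 79 genes were measured. At an unadjusted p under 0.05 were 6 of them (8.33%), all lower in Mthfd1S+/- mucosa, where 2.44% of all clusters were lower and 3.36% higher by the same rule, and 0 passed adjusted. Scaling changes that background split: 58.0% of the clusters called were higher as deposited and 73.5% with each array centred on its median. With that centring 3 pathway genes were called, again all lower, where 6.42% of all clusters were called. A fit blocked on replicate number gave 9, of which 4 were higher, where 9.91% of all clusters were called. The median log2 difference of the 72 was -0.0036. The groups did not overlap in 12 of the 72 (16.7%), near the 14.0% of all clusters.

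Among genes that release or recycle arachidonic acid, 2 of 14 were called, where the share over all clusters was 5.79%. Pla2g4f, of the cytosolic phospholipase A2 family, read 6.48, 6.19, 5.99 and 6.24 (log2 level) in WT and 5.66 and 5.54 in Mthfd1S+/- mice, a difference of -0.63 ± 0.13 (SE; unadjusted p = 0.00133, adjusted p = 0.837, limma). The secreted phospholipase gene Pla2g5 had -0.28 ± 0.098 (SE). In both genes the groups did not overlap, as in 14.0% of all clusters. Of 12 leukotriene and lipoxygenase genes 1 was called, the epidermal lipoxygenase Aloxe3 (-0.26 ± 0.099, SE). The row of Aloxe3 was dim, at the 27.4th percentile of cluster levels.

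Where the share called over all clusters was 5.79%, 1 of 13 genes that induce Ptgs2 was called. It was Fos, a subunit of the AP-1 transcription factor, which read 9.26, 9.41, 9.44 and 8.69 (log2 level) in WT and 8.67 and 8.48 in Mthfd1S+/- mice. WT mouse 4 lay just above the Mthfd1S+/- mice for Fos, and it also had the lowest Ptgs2 of the WT mice. WT mouse 1, the highest for Ptgs2, read lower for Fos than WT mice 2 and 3, so the 2 genes did not share an order. The difference of Fos was -0.63 ± 0.20 (SE; unadjusted p = 0.0134, adjusted p = 0.837, limma). Of 19 genes of EP receptor and cyclic AMP signalling 2 were called, the cyclic AMP phosphodiesterases Pde4b (-0.21 ± 0.088, SE) and Pde4d (-0.23 ± 0.093, SE). Both had groups that did not overlap, as did 14.0% of all clusters.

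**Figure D4:**
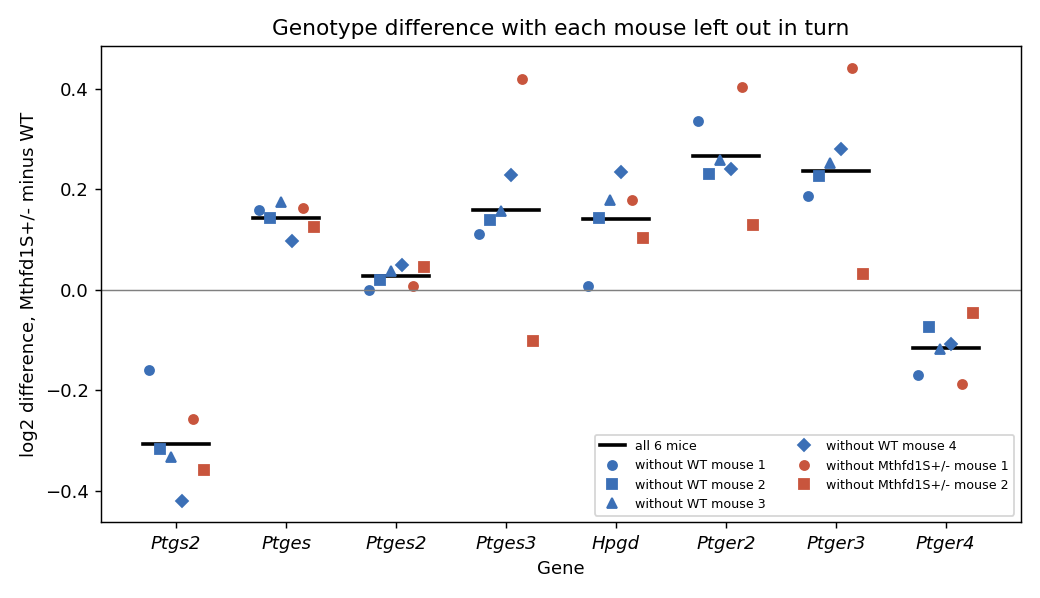
Log2 difference, Mthfd1S+/- minus WT (vertical axis), of the 8 genes with all 6 mice (black lines) and with each WT mouse (blue) or Mthfd1S+/- mouse (red) left out in turn. Ptges keeps to 0.097 to 0.18, while Ptger3 runs from 0.031 to 0.44 with the choice of Mthfd1S+/- mouse, and Ptges3 crosses 0.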

How the data were processed

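The deposited table gives log2 expression values, 1 per transcript cluster and array, which the authors computed in Affymetrix Expression Console (submitters' processing notes). The version, the summarisation method and the genome build of that step are not stated in any label. That the scale is log2 follows from the range of the values, 1.06 to 13.5. Detection calls were not used here. The labels call the arrays biological replicates, 1 mouse each.

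Of 41345 clusters, 23521 had exactly 1 platform gene symbol. They were fitted in R 4.3.3 by lmFit and eBayes of limma 3.58.1 (two-sided, all 6 arrays, no covariate), with Benjamini-Hochberg adjustment over all of them at 0.05. The highest-mean cluster stood for each gene. The fit was tested on simulated data. The median SE of a log2 difference was 0.106; the number of arrays limits the precision. Single values were compared by exact two-sided permutation.

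The members and the 20 gene lists were chosen with earlier results of these data known. All members are named, and of each pathway list up to 4 genes at an unadjusted p under 0.05 (a threshold that is descriptive only), besides the prostanoid enzymes, receptors and carriers. Alternatives changed scaling, filtering, moderation, covariates and the mice included.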

Additional observations from a re-analysis of the deposited data

Results flagged for a closer look

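Tbxas1, the thromboxane synthase gene, read 5.90 in WT mouse 3 on the log2 scale, against 5.78 to 5.80 in the other 3 WT mice. This gap takes 0.834 of the whole WT range, above the limit of Dixon's test for 4 samples. It was 1 of 29 genes examined this way, where chance passes about 1 in 20.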

How the results depend on the processing

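Of the refitted differences of the 8 genes, 121 kept their direction and all stayed above an adjusted p of 0.05 in limma. Settings that changed only the clusters tested or the moderation leave a difference as it was, so their directions could not turn. Over all clusters, 0 passed at an adjusted p under 0.05 in every setting. The 5 that turned were Ptges3 with the smooth muscle mean (-0.096) or the colonocyte mean (-0.029) as a covariate and without Mthfd1S+/- mouse 2 (range with a mouse left out -0.10 to 0.42), Hpgd with the smooth muscle mean (-0.0061), and Ptger4 with the colonocyte mean (0.011); the cause was not tested. Members at an unadjusted p under 0.05 numbered 1 when arrays were quantile normalized or centred on their median. The member was Ptger2, and 6.42% of all clusters were called in either case. With the identifier letter as a covariate there was 1 (Ptger3, where 7.83% of all clusters were called). With a WT mouse left out there were 0 or 1, where 4.53% to 6.97% of all clusters were called. Pathway genes at that threshold numbered 6 of 72, where 5.79% of all clusters were called. There were 3 with centred arrays (6.42% of all clusters) and 3 of 48 with dim clusters left out (5.74% of the clusters kept). Leaving out a WT mouse gave 4 to 7 (4.53% to 6.97% of all clusters). The next cluster per gene gave 8, 1 of them higher (5.79%). The replicate block gave 9, 4 higher and 5 lower, where 9.91% of all clusters were called. None of the 8 genes has a second cluster, and Ptges3 and Ptger2 fall out with the dim clusters.

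The replicate numbers do not pair the mice by any label. Deviations from the group means correlated at 0.12 for number 1 and -0.044 for number 2. In a group of 2 mice the deviations mirror each other, so these values cannot show whether the numbers pair the mice. A fit with the number as a replicate block leaves 1 residual degree of freedom. WT mice 3 and 4 have no Mthfd1S+/- mouse of their number. The differences of this fit therefore rest on WT mice 1 and 2 and both Mthfd1S+/- mice. In it, 3 members were at an unadjusted p under 0.05 in limma, where 9.91% of all clusters were. They were Ptgs2 (-0.51, limma adjusted p = 0.322), Hpgd (0.34) and Ptger3 (0.33).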
